A study of Mus musculus with 6 samples.

Results

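The 10 genes described here encode the secreted guidance proteins Slit1, Slit2, Slit3, Sema3b, Sema3c, Sema3f, Ntn1 and Ntn4 and the Slit receptors Robo1 and Robo2. They were taken by gene symbol from a table of 24354 genes, and all 10 symbols were found there. The table holds FPKM values (fragments per kilobase, scaled to the mapped reads of the library) of 3 adult and 3 E16.5 samples of mouse choroid plexus (ChP), the tissue that secretes cerebrospinal fluid. Adults were 60 days old by the sample labels and 8 weeks old by the study's methods. Mice of both ages carried the same alleles, FoxJ1:cre and a bacTRAP transgene (EGFP:L10a), so that Cre under the FoxJ1 promoter switched on a tagged ribosomal protein, and RNA bound to tagged ribosomes was purified and sequenced (TRAP). No treatment is given for either age. By the methods each sample pooled several mice or litters, while the series description counts 3 mice per age, so the number of animals behind a replicate is not settled, and p-values measure only the spread between these samples. The comparison asks which guidance genes were on tagged ribosomes at each age.

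Slits are large secreted proteins that bind Robo receptors, and the pair is best known for repelling axons and migrating cells. Slit protein made by the ChP has also been linked to the direction in which neuroblasts migrate in the adult brain. Class 3 semaphorins are secreted proteins that bind neuropilins, which signal together with plexins. Netrins are relatives of laminins. Ntn1 acts through the receptors Dcc, Neo1 and the Unc5 proteins, and Ntn4 is found mainly in basement membranes.

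These families consist of related genes, and the reads were 50 bases long, so the most alike coding stretches are shown first to let a reader see how far the sequences separate. They were read from the GENCODE M21 transcripts of mm10, and capitals mark the bases that differ within a pair. The most alike 60 coding bases of Sema3b and Sema3c differed at 6 positions, and their longest shared run in that window was 26 bases. The Sema3b stretch lies in exon 15 on the minus strand at chr9:107600957-107601016 and the Sema3c stretch in exon 12 on the plus strand at chr5:17694677-17694736.
Sema3b: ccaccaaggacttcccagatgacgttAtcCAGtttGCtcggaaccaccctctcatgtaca
Sema3c: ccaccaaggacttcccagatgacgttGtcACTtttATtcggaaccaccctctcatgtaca
In Slit2 and Slit3 the most alike stretch spans exons 5 and 6 of each gene, on the plus strand, and differed at 9 positions. Its ends lie at chr5:48170217-48182295 for Slit2 and chr11:35508285-35544778 for Slit3, with the intron between them left out.
Slit2: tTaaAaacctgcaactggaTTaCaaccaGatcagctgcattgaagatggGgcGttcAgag
Slit3: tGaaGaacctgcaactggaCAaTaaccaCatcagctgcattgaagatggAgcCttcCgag
Ntn1 and Ntn4 were further apart, with 16 differing positions, in exon 4 of Ntn1 on the minus strand at chr11:68277464-68277523 and exon 5 of Ntn4 on the plus strand at chr10:93710566-93710625.
Ntn1: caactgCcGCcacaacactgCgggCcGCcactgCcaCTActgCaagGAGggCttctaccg
Ntn4: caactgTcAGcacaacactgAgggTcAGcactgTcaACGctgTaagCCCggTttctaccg
Only the longest coding transcript of each gene was searched for runs of 50 bases found in another gene. In 9 of the 10 genes it held no such run, and in Ntn4 0.834% of its runs were shared. No exon of the 10 genes overlapped an exon of another gene in this annotation.

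The libraries differed between the ages in depth and in the number of genes at 0, which touches every low value below. The depth is not given with FPKM, but low values fell into steps as wide as the FPKM of 1 read. Depth estimated from the width of the steps was lowest in adult replicate 3. It was 1.28 and 2.9 times that in the remaining adult libraries and 4.21 to 5.18 times that at E16.5. Per library, 66.7% to 82.1% of 36 to 63 low values came within 0.1 of a whole number of reads. The width was picked for the best such match, so this percentage is no separate check of the depth. Among genes tested, 10.3% to 36.4% were listed at 0 in an adult library against 3.68% to 4.02% at E16.5. Ribosomal protein genes, which every cell uses, were also at 0, with 27 to 52 of 80 in an adult library and 12 to 16 at E16.5. A listed 0 can therefore be a failed estimate, and for an age with such a value the text gives no mean FPKM of a gene. The log2 ratios and the mean lines in the figures still average over such libraries. Pearson's r across genes was 0.615 to 0.733 between adult libraries and 0.825 to 0.841 between E16.5 libraries.

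Of the 10 genes, Sema3b rose and Sema3c fell from E16.5 to adult ChP, and the other 8 did not pass the test or were too low to be tested. Limma was run on log2(FPKM + 1) over the 11601 genes with a mean above 1 FPKM in the 6 samples, and a gene passed at a Benjamini-Hochberg adjusted p under 0.05. On this scale the change of a low gene is understated. In simulated data with large changes, false calls were more than this threshold allows. Of all genes tested, 10.9% passed, 2.12% higher in adult ChP and 8.83% higher at E16.5. Of the guidance genes, 7 were tested, with 1 passing in each direction. Slit1, Robo1 and Robo2 lay under the filter, Robo2 by a small margin with a mean of 0.960 FPKM. The median change of all genes tested was -0.86 on the log2 scale, adult minus E16.5, so values relative to this median are given where they matter. Its size followed the scaling. It was -0.15 after quantile normalization and -1.48 after rescaling each library to the same sum, and the genes passing, 246 higher in adult ChP and 1024 higher at E16.5 as deposited, became 466 and 449, and 119 and 3238. With median-ratio scaling they were 348 and 660. A single row, Mir6236, held 32.7% to 51.7% of the summed FPKM in adult libraries and 13.3% to 15.0% at E16.5. Left out of the same-sum rescaling, it left a median of -0.99, with 195 genes passing higher in adult ChP and 1334 at E16.5. In such bulk libraries fewer cells of a type and less RNA per cell cannot be told apart.

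**Figure D1:**
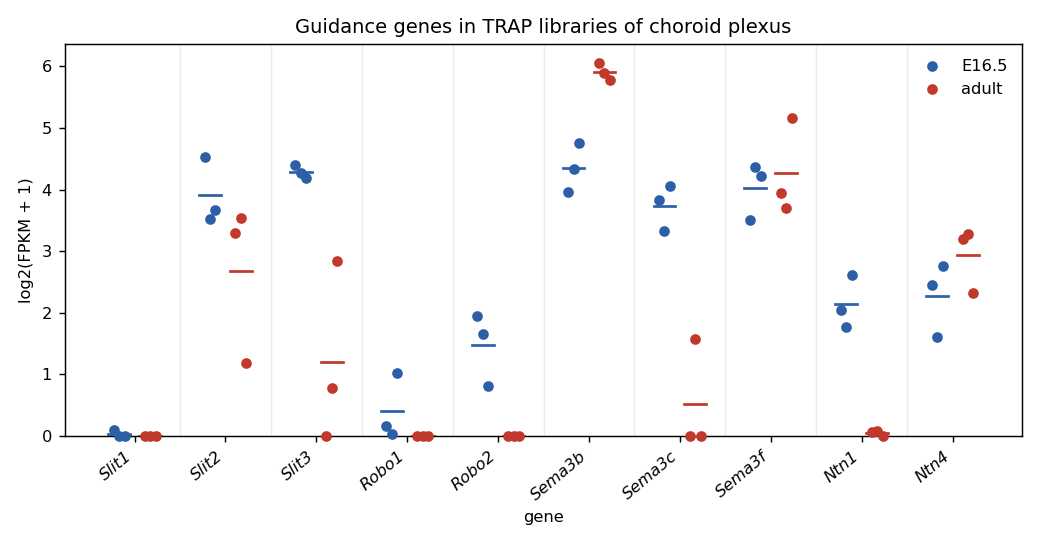
The level of each of the 10 guidance genes is plotted as log2(FPKM + 1) on the vertical axis, with 1 point per library, E16.5 in blue and adult in red, and a line at the mean of the 3 libraries. Adult points of Sema3b all sit above the E16.5 points, those of Slit3, Sema3c and Ntn1 all sit below, and Slit1, Robo1 and Robo2 are at 0 in every adult library.

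Class 3 semaphorins changed in opposite directions. Sema3b, a secreted repellent of axons, lies at chr9:107597674-107609229 on the minus strand. It was the most abundant of the 10 genes in every adult library, at 65.7, 58.4 and 54.1 FPKM, and measured 14.6, 19.2 and 26.2 FPKM at E16.5. All adult values lay above all E16.5 values. The means were 59.4 ± 5.89 FPKM in adult ChP and 19.995 ± 5.80 FPKM at E16.5 (SD, n = 3 each), a 2.97-fold difference. The limma log2 change was 1.56 (SE 0.36, 95% interval 0.72 to 2.39), with an adjusted p of 0.0368. Relative to the median of all genes it was 2.41, and between 2.201 and 2.46 over 5 scalings, the deposited values included. A factor per library moves an abundant gene and the median largely together, so a narrow range was mostly set in advance. The call passed in 7 of the 18 alternatives. It was lost when adult replicate 1 (adjusted p = 0.0776), adult replicate 2 (0.0503), or E16.5 replicate 1 (0.112), 2 (0.109) or 3 (0.0723) was left out, and when each library was rescaled to the same sum (log2 change 0.75, adjusted p = 0.217). With Mir6236 left out of that sum the log2 change was 1.40 (adjusted p = 0.0652). Over all genes, though not for Sema3b itself, adult libraries were less alike than E16.5 libraries. The Sema3b call was also lost with weights per age that allow for this (adjusted p = 0.0510).

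Sema3c, a class 3 semaphorin known for its part in the migration of neural crest cells into the heart, lies at chr5:17574281-17730268 on the plus strand. Adult replicates 1 and 3 listed it at 0 and adult replicate 2 at 1.97 FPKM, and it measured 13.2, 8.98 and 15.6 FPKM at E16.5. No adult value reached the lowest E16.5 value. The log2 change was -3.21 (SE 0.71, 95% interval -4.87 to -1.55), with an adjusted p of 0.0336. In the adult libraries where Sema3c was at 0, 1 read would have been worth about 0.0488 and 0.0625 FPKM, and the lone adult value amounts to about 91.3 reads, against 745 to 1201 reads at E16.5. The call passed in 8 of the 18 alternatives. It was lost without adult replicate 1 (adjusted p = 0.0715) and without E16.5 replicate 1 (0.114), 2 (0.0982) or 3 (0.108), and with pseudocounts of 0.1 and 0.01 (0.0680 and 0.118).

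Sema3f, a semaphorin that acts mainly through Nrp2, lies near Sema3b on the same strand, at chr9:107681500-107710475. It measured 14.3, 11.98 and 34.9 FPKM in adult ChP and 10.3, 19.5 and 17.7 FPKM at E16.5. The ages overlapped, and the highest value was that of adult replicate 3. The means were 20.4 ± 12.6 and 15.8 ± 4.88 FPKM (SD, n = 3 each). The log2 change of 0.24 (SE 0.55, 95% interval -1.03 to 1.51) had an adjusted p of 0.786, and p was 0.8 in a two-sided exact permutation test, in which 3 against 3 samples cannot go below 0.1. Its sign turned to -0.21 without adult replicate 3 and to -0.02 without E16.5 replicate 1. It also turned to -0.55 with rescaling to the same sum, but was 0.09 with Mir6236 left out of that sum.

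The summed FPKM of Sema3a to Sema3g was 75.8 to 88.9 in adult libraries and 40.3 to 60.8 at E16.5, and its make-up differed. Sema3b made up 60.8% to 81.9% of the sum in adult libraries and 36.3% to 43.0% at E16.5, with no overlap. Sema3c made up 0% to 2.60% in adult libraries and 18.7% to 32.6% at E16.5. The Sema3f share overlapped, at 15.8% to 39.2% and 25.6% to 40.6%. A share does not move when a whole library is multiplied by a factor, whereas the ratios below, taken after adding 1 FPKM, do where a gene is at or near 0. The log2 ratio of Sema3b to Sema3c, was 5.39 ± 0.93 in adult ChP and 0.62 ± 0.44 at E16.5 (SD, n = 3 each), a difference of 4.77. That of Sema3f to Sema3c differed by 3.45. The ages did not overlap in either ratio, for each of which p was 0.1, the smallest that the two-sided exact permutation test can give, and 0.133 adjusted over the 4 ratios planned. Both ratios rest on a Sema3c value of 0 in 2 adult libraries. A further ratio, of Sema3b to Sema3f, was added after the data were seen and has both genes above 0 in every library. It was 1.65 ± 0.89 in adult ChP and 0.33 ± 0.31 at E16.5 (SD, n = 3 each), without overlap, with an unadjusted exact permutation p of 0.1.

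The other class 3 semaphorins were low at both ages, and none of the 4 reached the filter. Sema3e measured 0.192, 1.81 and 0 FPKM in adult ChP and 0.766, 0.313 and 1.31 FPKM at E16.5. Sema3d was at 1.61 FPKM in adult replicate 2 and at 0 in the other adult libraries, Sema3a was above 0 only in E16.5 replicate 1, at 1.42 FPKM, and Sema3g was listed at 0 in all 6 libraries.

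**Figure D2:**
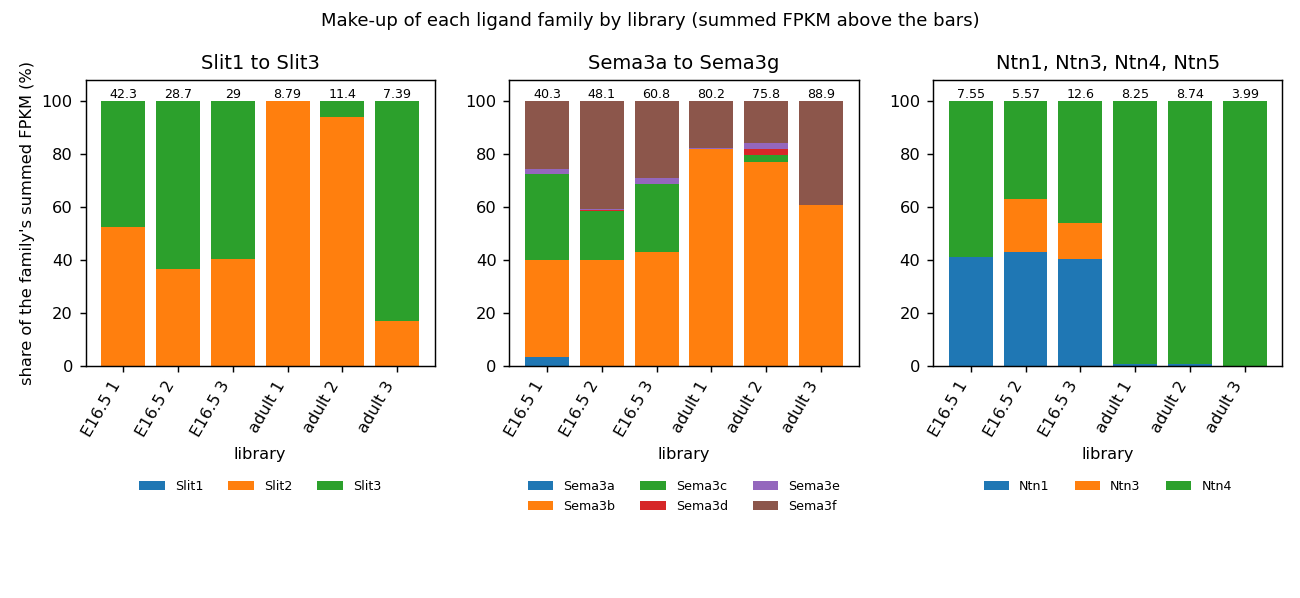
Each bar is 1 library, and its coloured parts are the shares (%) of the genes of a ligand family in the family's summed FPKM, which stands above the bar. Sema3b takes most of the semaphorin sum in every adult library, Sema3c is a visible part of it in all E16.5 libraries, and Ntn1 takes 40.4% to 43.0% of the netrin sum at E16.5 and at most 0.699% in adult libraries.

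The Slits were led by Slit2 and Slit3. Slit2, at chr5:47983138-48307733 on the plus strand, measured 8.79, 10.7 and 1.27 FPKM in adult ChP and 22.1, 10.5 and 11.7 FPKM at E16.5. Adult replicate 2 reached the E16.5 range and adult replicate 3 stood far below it. The means were 6.91 ± 4.98 and 14.8 ± 6.40 FPKM (SD, n = 3 each). The log2 change was -1.23 (SE 0.77, 95% interval -3.01 to 0.55), with an adjusted p of 0.303. This change was -0.38 relative to the median of all genes and between -0.46 and -0.03 over the scalings. Without adult replicate 3 the change was -0.49, or 0.20 relative to the median, and without E16.5 replicate 1 it was -0.92, or -0.09 relative to the median.

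Slit3, at chr11:35121224-35708507 on the plus strand, was listed at 0 in adult replicate 1 and measured 0.705 and 6.13 FPKM in the others. At E16.5 it measured 20.2, 18.3 and 17.3 FPKM, the smallest spread for its level among the 10 genes at that age, and no adult value reached it. The log2 change was -3.09 (SE 0.82, 95% interval -5.01 to -1.17), but the adjusted p of 0.0532 missed the threshold. It passed without adult replicate 3 (0.00854), the library with the highest adult value, and in 5 of the 18 alternatives in all. Adult replicate 3 also had the highest oligodendrocyte marker signal, with Mbp, a myelin protein, at 58.7 FPKM against at most 6.30 FPKM in the other libraries, and the part of this in its Slit values was not tested.

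Slit2 and Slit3 did not keep 1 ratio in adult libraries. Slit2 made up 100% and 93.8% of the summed Slit FPKM in adult replicates 1 and 2 and 17.1% in adult replicate 3, against 36.4% to 52.2% at E16.5. The log2 ratio of Slit2 to Slit3 overlapped between the ages, with a difference of 1.85 (two-sided exact permutation p = 0.4, also after adjustment over the 4 ratios). The summed Slit FPKM was 7.39 to 11.4 in adult libraries and 28.7 to 42.3 at E16.5, without overlap. Slit1, at chr19:41600257-41743665 on the minus strand, was listed at 0 in 5 libraries and at 0.0633 FPKM in E16.5 replicate 1, about 4.4 reads.

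The Slit receptors were low. Robo2, at chr16:73891839-74411825 on the minus strand, was listed at 0 in the 3 adult libraries and measured 2.85, 2.16 and 0.752 FPKM at E16.5. Robo1, at chr16:72308306-73046095 on the plus strand, was also listed at 0 in the adult libraries and measured 0.119, 0.0257 and 1.02 FPKM at E16.5. All E16.5 values of both genes lay above 0. In the adult libraries 3 reads of Robo2 would have been worth about 0.0923, 0.0408 and 0.118 FPKM, below each E16.5 value. For Robo1 they would have been worth 0.105, 0.0465 and 0.135 FPKM, all above the lowest E16.5 value of 0.0257 FPKM, about 3.0 reads. A level that low would have stayed under 3 reads in each adult library and could have been missed. Both genes were under the filter, and no fold is given against a group at 0. With all genes kept, the limma log2 change of Robo2 was -1.47 with an adjusted p of 0.0614. Robo3 was listed at 0 in all 6 libraries, and Robo4, known from endothelium, was above 0 only in E16.5 replicate 3, at 1.14 FPKM.

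Of 14 other genes of the Slit and Robo pathway, 12 were tested and none passed an adjusted p of 0.05 in limma. Unadjusted, 2 were higher in adult ChP and 3 at E16.5 at a p under 0.05, beside 620 and 3006 of all 11601 genes tested. Their median log2 change was -0.68, beside -0.86 for all genes tested. Srgap3, a GTPase-activating protein that binds Robo receptors, and Dock1, an exchange factor for Rac that acts downstream of Robo, were the most abundant. Srgap3 measured 58.5, 36.6 and 40.8 FPKM in adult ChP and 35.9, 48.7 and 50.5 FPKM at E16.5, with a log2 change of -0.01 (95% interval -0.80 to 0.79, adjusted p = 0.994). Dock1 measured 25.6, 32.5 and 22.4 FPKM in adult ChP, below all values at E16.5, which were 55.3, 54.5 and 65.6 FPKM (log2 change -1.11, SE 0.32, adjusted p = 0.0673).

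Neither Ntn1 nor Ntn4 passed the test. Ntn1, at chr11:68209364-68400823 on the minus strand, was listed at 0.0461, 0.0611 and 0 FPKM in adult ChP, about 1.0, 3.0 and 0 reads. At E16.5 it measured 3.11, 2.396 and 5.08 FPKM, about 213 to 419 reads, and all of these lay above the adult values. The log2 change was -2.09 (SE 0.56, 95% interval -3.38 to -0.79), and the adjusted p of 0.0531 missed the threshold. It passed with all genes kept (0.0340), with genes above 1 FPKM in at least 3 samples (0.0208), with a pseudocount of 0.1 (0.0386), without a trend (0.0330) and with rescaling to the same sum (0.0270). Ntn1 passed in none of the 6 fits that left out a library, where the adjusted p lay between 0.0690 and 0.116. Its change relative to the median of all genes was -1.23, and between -1.30 and -0.59 over the scalings, with quantile normalization at the small end (adjusted p = 0.468).

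Ntn4, at chr10:93640681-93747207 on the plus strand, measured 8.21, 8.68 and 3.99 FPKM in adult ChP and 4.44, 2.06 and 5.80 FPKM at E16.5. Adult replicates 1 and 2 lay above all E16.5 values and adult replicate 3 lay among them. The means were 6.96 ± 2.58 and 4.10 ± 1.89 FPKM (SD, n = 3 each). The log2 change was 0.66 (SE 0.65, 95% interval -0.86 to 2.18), with an adjusted p of 0.507. It turned to -0.03 with rescaling to the same sum, but was 0.51 with Mir6236 left out of that sum. Within the summed FPKM of Ntn1, Ntn3, Ntn4 and Ntn5, Ntn4 made up 99.3% to 100% in adult libraries and 37.0% to 58.8% at E16.5. The log2 ratio of Ntn4 to Ntn1 was 2.88 ± 0.49 in adult ChP and 0.14 ± 0.28 at E16.5 (SD, n = 3 each), without overlap, and p was 0.1 in the two-sided exact permutation test and 0.133 adjusted over the 4 ratios.

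**Figure D3:**
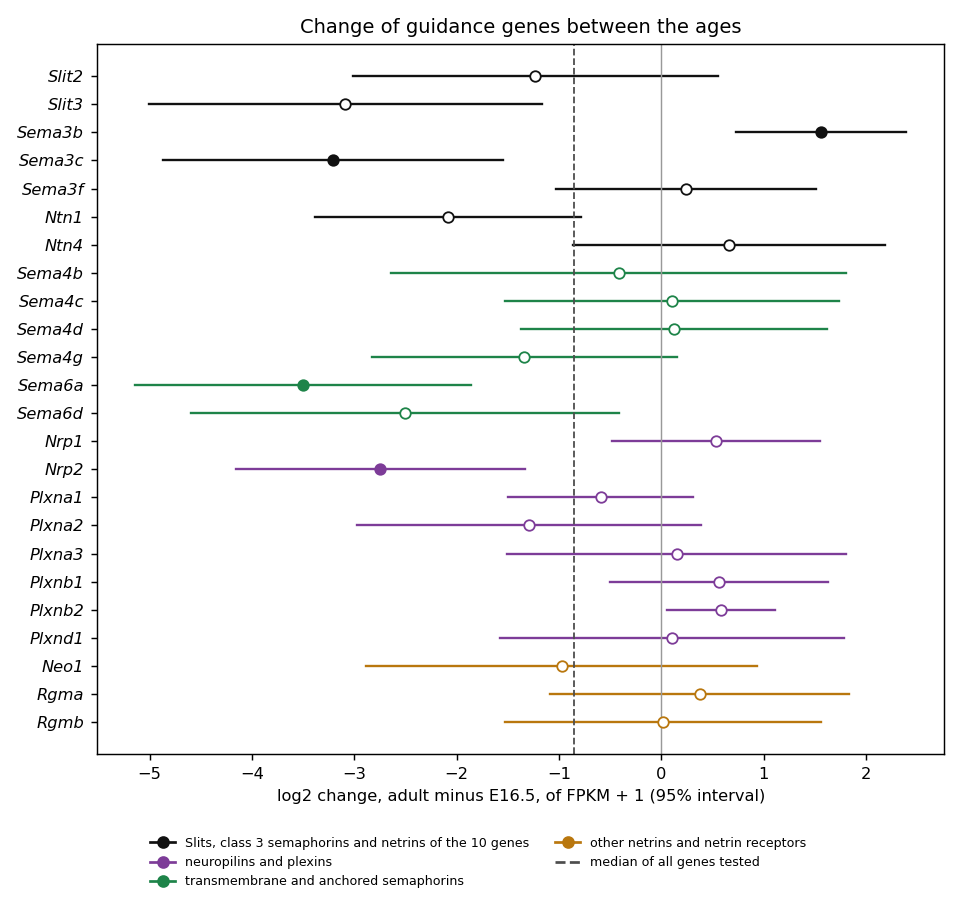
The horizontal axis is the limma log2 change of FPKM + 1, adult minus E16.5, with its 95% interval, filled points passed an adjusted p of 0.05, and the dashed line is the median of all genes tested at -0.86. Sema3b is the filled point on the adult side, at 1.56, and Sema3c, Sema6a and Nrp2 are filled on the E16.5 side, at -3.21, -3.50 and -2.75.

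Across the 7 tested genes the ages did not overlap in 4, with Sema3b above and Slit3, Sema3c and Ntn1 below in adult ChP. Of all genes tested, 38.4% did not overlap, 7.39% with adult ChP above and 31.0% below. The summed FPKM of the 10 genes overlapped between the ages, at 92.5 to 100.3 in adult libraries and 83.1 to 101.1 at E16.5, while 5, 3 and 5 of them were listed at 0 in adult replicates 1, 2 and 3 and at most 1 in an E16.5 library. By mean FPKM the order in adult ChP was Sema3b and Sema3f, then Ntn4 and Slit2 at 6.96 and 6.91 FPKM, which did not differ beyond their spread. At E16.5, Sema3b, Slit3, Sema3f, Slit2 and Sema3c had means between 19.995 and 12.6 FPKM, and each neighbour in that order lay within the spread of the next.

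**Figure D4:**
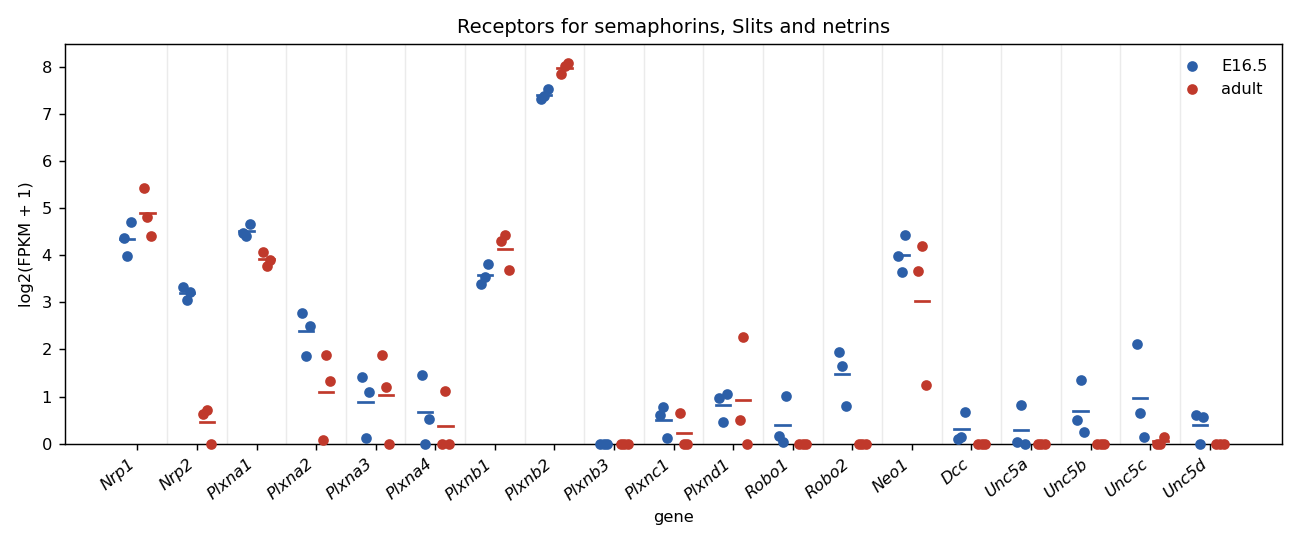
The level of each receptor for semaphorins, Slits and netrins is plotted as log2(FPKM + 1), with 1 point per library, E16.5 in blue and adult in red, and a line at the mean. Plxnb2 is the highest at both ages, Nrp2 lies between 7.29 and 9.01 FPKM at E16.5 and at most at 0.644 FPKM in adult ChP, and Robo1, Robo2, Dcc and Unc5a, Unc5b and Unc5d are at 0 in every adult library.

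Among the semaphorin receptors, the neuropilins differed. Nrp2, the neuropilin that binds Sema3f with high affinity, was at 0.552, 0.644 and 0 FPKM in adult ChP and at 9.01, 7.29 and 8.28 FPKM at E16.5. It fell by 2.75 on the log2 scale (SE 0.61, adjusted p = 0.0326). Nrp1, which also binds VEGF, was at 42.5, 27.1 and 20.4 FPKM in adult ChP and 19.6, 14.8 and 25.3 FPKM at E16.5. These overlapped (log2 change 0.54, 95% interval -0.48 to 1.55, adjusted p = 0.422). The change of Nrp1 turned to -0.26 with rescaling to the same sum, but was 0.38 with Mir6236 left out of that sum. The Nrp2 call was lost without adult replicate 1 (adjusted p = 0.0638) and without E16.5 replicate 1 (0.102), 2 (0.0922) or 3 (0.0907). It was also lost with quantile normalization (0.184) and with pseudocounts of 0.1 and 0.01 (0.0673 and 0.150). In all, Nrp2 passed in 9 of the 18 alternatives.

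Plexins are the signalling partners of neuropilins, and those of class B bind transmembrane semaphorins of class 4 directly. Plxnb2 was the most abundant receptor, at 230, 261 and 272 FPKM in adult ChP and 159, 166 and 184 FPKM at E16.5. Its adult values lay above all E16.5 values, with means of 254 ± 21.7 and 170 ± 13.1 FPKM (SD, n = 3 each). The log2 change of 0.58 (SE 0.23, 95% interval 0.05 to 1.11) had an adjusted p of 0.132. It passed with median-ratio scaling (0.0407) and quantile normalization (0.0376). It turned to -0.25 with rescaling to the same sum, but was 0.42 with Mir6236 left out of that sum. Of the 11 neuropilins and plexins, 8 were tested, and Nrp2 was the only one to pass. Their median log2 change was 0.12, beside -0.86 for all genes tested. A positive change was seen in 5 of the 8, beside 3158 of the 11601 genes tested.

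Among 13 transmembrane and anchored semaphorins, 6 were tested and 1 passed. Sema6a, a ligand of class A plexins that can also act as a receptor, was at 0, 1.84 and 0 FPKM in adult ChP and 12.6, 20.7 and 12.9 FPKM at E16.5. It fell by 3.50 on the log2 scale (SE 0.70, adjusted p = 0.0263). The call was lost without adult replicate 1 (0.0562) and without E16.5 replicate 1 (0.0944), 2 (0.10004) or 3 (0.0840). It was also lost with pseudocounts of 0.1 and 0.01 (0.0566 and 0.104), and passed in 10 of the 18 alternatives. Sema6d, its relative, was at 1.32, 8.37 and 0 FPKM in adult ChP and 12.7, 21.7 and 11.8 FPKM at E16.5, with an adjusted p of 0.109. The median log2 change of the 6 was -0.88.

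Among 16 proteins that act downstream of semaphorin receptors, 13 were tested and 1 passed in each direction. Arhgef12, an exchange factor for RhoA that binds class B plexins, was at 196, 155 and 168 FPKM in adult ChP and 64.6, 90.6 and 85.0 FPKM at E16.5. It rose by 1.11 on the log2 scale (SE 0.27, adjusted p = 0.0414) and passed in 8 of the 18 alternatives. The rise was 0.29 (adjusted p = 0.521) with rescaling to the same sum and 0.95 (0.0844) with Mir6236 left out of that sum. Arhgef11, a related exchange factor, was at 18.3, 26.0 and 46.3 FPKM in adult ChP and 9.28, 20.1 and 16.1 FPKM at E16.5 (adjusted p = 0.253). Dpysl3, a collapsin response mediator protein, was at 0, 0.291 and 0 FPKM in adult ChP and 31.3, 5.84 and 5.46 FPKM at E16.5 (log2 change -3.37, SE 0.81, adjusted p = 0.0405). E16.5 replicate 1, where Dpysl3 was highest, also had the highest neuronal marker sum, at 92.5 FPKM with Tubb3 at 36.2 and Stmn2 at 25.3, against 2.05 and 4.52 FPKM in the other E16.5 libraries. The part of this in the Dpysl3 values was not tested. Both calls were lost without adult replicate 1 (adjusted p = 0.0833 and 0.0856), E16.5 replicate 1 (0.124 and 0.0862), E16.5 replicate 2 (0.0966 and 0.0935) and E16.5 replicate 3 (0.0983 and 0.0834). The median log2 change of the 13 was 0.04.

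The netrin receptors were low except for Neo1. Neo1, a receptor of netrins and of repulsive guidance molecules, was at 11.7, 17.4 and 1.38 FPKM in adult ChP and 14.8, 11.4 and 20.5 FPKM at E16.5 (adjusted p = 0.436), with adult replicate 3 far below the other libraries. Rgma, a membrane-anchored ligand of Neo1, was at 19.5, 6.93 and 7.14 FPKM in adult ChP and 10.7, 7.95 and 4.81 FPKM at E16.5 (adjusted p = 0.706). Dcc was listed at 0 in the adult libraries and was between 0.0629 and 0.589 FPKM at E16.5, and the 4 Unc5 genes were at 0 in adult ChP except for Unc5c, at 0.108 FPKM in adult replicate 3. Only 3 of the 13 other netrins and netrin receptors were tested, none passed, and their median log2 change was 0.02. Unadjusted, none had a p under 0.05 either, beside 620 higher in adult ChP and 3006 higher at E16.5 of all 11601 genes tested.

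Marker genes of the epithelium and of other cells were read beside these genes. The 10 markers of ChP epithelium summed to 39473 to 54746 FPKM in adult ChP and 3738 to 4313 FPKM at E16.5. Most of the adult sum was Ttr, the transthyretin gene that defines this epithelium, and Enpp2, which encodes autotaxin. Ttr was at 20922 to 31302 FPKM in adult ChP and listed at 0 in every E16.5 library, and Enpp2 was at 14886 to 18732 FPKM and 242 to 303 FPKM. A listed 0 can be a failed estimate, as said above, and the E16.5 sums hold no Ttr. The sums therefore do not measure how far epithelial signal differed between the ages. The 10 markers did not move together, with 4 higher in adult ChP and 2 higher at E16.5 at an adjusted p under 0.05, the latter being Otx2 (log2 change -1.16) and Kcne2 (-1.31). Motile cilia genes summed to 288 to 468 FPKM in adult ChP and 1055 to 1255 FPKM at E16.5. Of all 11601 genes tested, 3158 had a positive change and 8.83% passed higher at E16.5. Of the 9 motile cilia genes tested all had a negative change, and 5 passed. Rsph1 and Tekt1 were the most abundant of them, at 86.7 to 257 and 7.58 to 57.0 FPKM in adult ChP and 365 to 545 and 220 to 248 FPKM at E16.5. FoxJ1, whose promoter drove Cre, belongs to this list and was at 37.9 to 62.4 FPKM in adult ChP and 154 to 208 FPKM at E16.5 (adjusted p = 0.0127).

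Mesenchymal markers, of which 3 to 6 of 8 were above 0 in adult libraries and 6 or 7 at E16.5, summed to 15.7 to 25.1 FPKM and 62.3 to 72.5 FPKM, without overlap, and 1 of 6 tested passed. That gene was Pdgfra, a receptor of fibroblast precursors, at 2.2005 to 5.91 FPKM and 18.4 to 34.9 FPKM. Dcn was at 0 to 7.86 FPKM and 12.8 to 24.6 FPKM, Lum at most at 0.298 FPKM and Dpt at 0 throughout. Cell cycle genes summed to 0 to 31.1 FPKM and 42.8 to 77.5 FPKM, also without overlap, with 1 of 4 tested passing, higher at E16.5. Pcna was at 0, 27.0 and 0 FPKM in adult ChP and 25.0 to 48.0 FPKM at E16.5, and Cdk1 at 0 to 16.5 FPKM and 9.44 to 19.9 FPKM. The part of motile cilia, mesenchymal, neuronal or cycling cells in the values of Slit3, Sema3c, Ntn1, Nrp2 and Sema6a was not tested.

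The sums of the endothelial, mural, macrophage and oligodendrocyte markers overlapped between the ages, and none of their tested genes passed. Endothelial markers summed to 0.489 to 27.2 FPKM in adult ChP and 12.7 to 40.6 FPKM at E16.5, with Kdr at 0.435 to 7.75 FPKM and 12.3 to 36.7 FPKM, Cldn5 above 0 only in adult replicate 2 (9.48 FPKM) and Pecam1 at 0 in 5 of the 6 libraries. Mural markers summed to 4.78 to 14.4 FPKM and 7.55 to 10.3 FPKM, with Cspg4 at 3.90 to 5.54 FPKM and 0.680 to 2.61 FPKM and Pdgfrb at 0 to 5.54 FPKM and 0.138 to 2.71 FPKM. Macrophage markers summed to 0.0695 to 6.82 FPKM and 0.584 to 8.48 FPKM, with C1qa at 0 in adult ChP and 0 to 6.98 FPKM at E16.5, Csf1r at 0.0695 to 2.52 FPKM and 0.327 to 3.58 FPKM, and Aif1 and Cd68 at 0 throughout. Oligodendrocyte markers summed to 1.05 to 73.0 FPKM and 3.38 to 7.86 FPKM. Red blood cell markers summed to 0 to 6.49 FPKM in adult ChP and 5.11 to 303 FPKM at E16.5, with Hbb-bs at 0 and at 3.90 to 299 FPKM and Alas2 at 0 to 6.49 FPKM and 1.20 to 4.19 FPKM. Of 2 red blood cell genes tested, 1 passed, higher at E16.5. Neuronal markers summed to 0 to 0.655 FPKM in adult ChP and 2.05 to 92.5 FPKM at E16.5, without overlap, and 0 of 4 tested passed.

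The length of a transcript also moved with the change. Genes whose transcript was under 2000 bases had a median log2 change of -1.54, those of 2000 to 5000 bases -0.76, and those over 5000 bases -0.36. The Sema3b, Sema3f and Ntn4 transcripts had 3410, 3395 and 3646 bases. Those of Slit2, Slit3, Sema3c and Ntn1 had 9960, 5228, 5491 and 5874 bases. The part of transcript length in the changes of these genes was not tested.

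**Figure D5:**
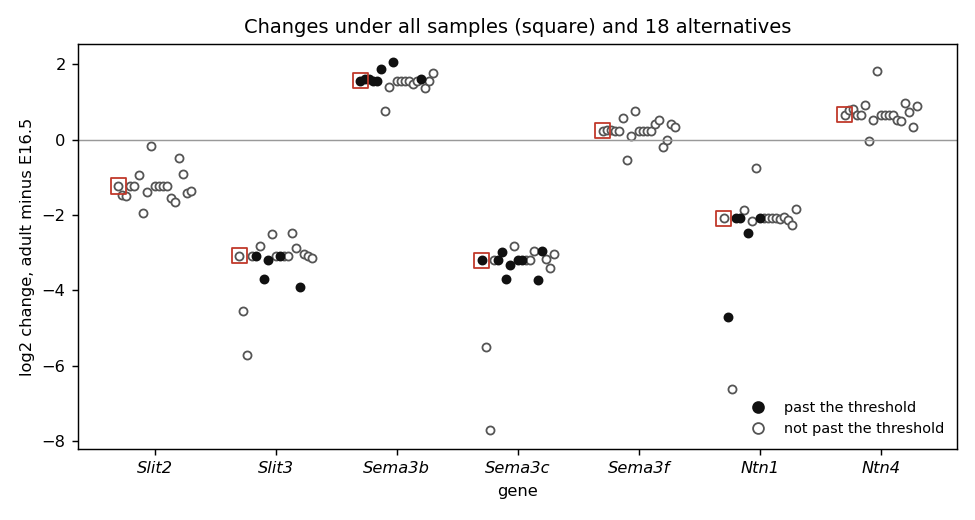
Each point is the log2 change (adult minus E16.5) of a tested guidance gene under 1 setting, with the values from all samples in a square and the 18 alternatives beside it, filled where the adjusted p passed the threshold of that setting. Sema3b stays above 0 and Slit2, Slit3, Sema3c and Ntn1 stay below 0 under all 18, while points of Sema3f and Ntn4 lie on both sides. Alternatives that change only the filter, the variance model, the block or the threshold cannot move a point.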

How the data were processed

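TRAP libraries of 3 adult and 3 E16.5 ChP samples were prepared with a SMARTer Pico kit with ribodepletion and sequenced as 50-base single-end reads. The authors aligned reads to mm10 with STAR (version 2.4.0 in the submitters' processing notes) and calculated the deposited FPKM values with Cuffquant of Cufflinks. The annotation used for this is not given in the sources used here, and the read counts of the authors' own test were not analysed here.

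FPKM were used as deposited, with samples grouped by their labels. The comparison used limma (version 3.58.1, run in R version 4.3.3) on log2(FPKM + 1). It kept the 11601 genes whose mean FPKM exceeded 1, let the variance follow the level of a gene, had no covariates, and applied Benjamini-Hochberg adjustment with a threshold of 0.05. Single values were also compared by two-sided exact permutation tests over the samples. The 10 genes and the gene lists were chosen with earlier results of these data known, so no p is adjusted over a list alone. Genes named by rule were the 10 genes, the passing and the 2 most abundant genes of each other guidance list, the 2 marker genes with the highest mean in each marker list, and the 3 nearest profiles of 3 genes. One marker gene that the rule takes is not reported here. Sema3a, Sema3g, Robo3, Robo4, Dcc, the Unc5 genes, FoxJ1, Otx2, Kcne2 and the markers given at or near 0 were named after their values were seen.

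Depth was estimated from the steps of 36 to 63 low FPKM values per library, found among 2526 genes, taking 200 bases off the transcript length. It covers counting error only, since reads carried no molecular identifiers. Coordinates and coding stretches came from GENCODE M21. The fit was tested on simulated data with the unequal spread of the real ages. There the estimated changes centred on those put in, small changes were mostly not called, and false calls were more than the threshold allows when changes were large.

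Same-numbered adult and E16.5 samples did not deviate together (r = 0.00089, 0.044 and 0.015), and no label pairs them, so the fit has no block. The alternatives were other pseudocounts, filters, scalings, variance models, thresholds and leaving out each library.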

Additional observations from a re-analysis of the deposited data

How the results depend on the processing

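Of the 7 tested guidance genes, Slit2, Slit3, Sema3b, Sema3c and Ntn1 kept their direction under all 18 alternatives. Without adult replicate 3 and without E16.5 replicate 1, Sema3f turned to -0.21 and -0.02. With libraries rescaled to the same sum Sema3f and Ntn4 turned to -0.55 and -0.030, but were 0.086 and 0.51 with Mir6236 left out of that sum. The causes of the shifts below were not tested.

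With a pseudocount of 0.1 the log2 changes of Sema3c and Ntn1 were -5.49 (no longer passing) and -4.70 (passing), and the median changes were -1.85 for transmembrane semaphorins, -0.26 for neuropilins and plexins and -1.11 for ephrins and Eph receptors. With 0.01 no member passed higher at E16.5 (0 of the 10, Sema3c at -7.72), and these medians were -2.52, -0.71 and -1.98. With no filter on low values Sema3c (-3.21) no longer passed, Ntn1 (-2.09) did, and the neuropilin and plexin median was -0.094. With FPKM above 1 in at least 3 samples 3 members passed higher at E16.5, with Slit3 (-3.09) and Ntn1 (-2.09) added.

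Median-ratio scaling gave 660 genes higher at E16.5 and a median of 0.36 for semaphorin signalling proteins. Rescaling to the same sum gave 119 genes higher in adult ChP and 3238 at E16.5, with 0 and 3 members. Slit3 (-3.69) and Ntn1 (-2.49) then passed and Sema3b (0.75) did not. The medians were -1.94 for the members, -1.37 for Slit and Robo pathway genes, -0.25 for neuropilins and plexins, -0.72 for semaphorin signalling and -0.66 for netrins and their receptors. Leaving Mir6236 out of that sum gave 0 and 2 members, with Slit3 (-3.19) passing and Sema3b (1.40) not. Quantile normalization gave 466 and 449 genes, 0 members higher at E16.5 with Sema3c at -2.82, and medians of -0.18 for the members, 0.31 for Slit and Robo pathway genes, 0.47 for transmembrane semaphorins, 0.72 for neuropilins and plexins, 0.79 for semaphorin signalling, 1.21 for netrins and their receptors and 0.65 for ephrins and Eph receptors.

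Limma without a trend gave 158 genes and 0 members higher in adult ChP and 2 members higher at E16.5, with Ntn1 (-2.09) passing and Sema3b (1.56) not. Weights per age gave 0 and 2 members, with Slit3 (-3.09) passing and Sema3b (1.56) not. At an adjusted p of 0.01 there were 56 and 132 genes and 0 members in each direction, Sema3b (1.56) and Sema3c (-3.21) included. With the replicate number as a block, 112 genes were higher in adult ChP and 452 at E16.5, with 0 members in each direction, Sema3b at 1.56 and Sema3c at -3.21. The numbers pair no samples, and not every sample correlated best with its own number.

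Leaving out 1 library in turn gave 27 to 357 genes higher in adult ChP and 16 to 1704 at E16.5, 0 to 1 members higher in adult ChP and 0 to 2 at E16.5, log2 changes of 1.36 to 1.76 for Sema3b, -3.73 to -2.95 for Sema3c, -3.90 to -2.49 for Slit3 and -0.21 to 0.52 for Sema3f. The lowest counts, 32 and 25, 27 and 16, and 47 and 65, came without E16.5 replicate 1, 2 or 3, and without adult replicate 1, 2 or 3 they were 146 and 541, 219 and 1704, and 357 and 1364. Median changes ranged from -0.77 to -0.16 for Slit and Robo pathway genes, from -0.16 to 0.55 for neuropilins and plexins, from -0.47 to 0.62 for semaphorin signalling and from -0.88 to 0.10 for netrins and their receptors. With few adult reads, values near those of 1 read, such as Ntn1 in adult ChP, cannot be ordered.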

Other observations

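Ephrins and their Eph receptors, a further family of guidance proteins that signal between touching cells, held no gene that passed the threshold used. Of 22 genes, 11 were tested, and 0 passed an adjusted p of 0.05 in limma in either direction, beside 10.9% of all genes tested. With so few genes tested, this does not show that the family was unchanged. Unadjusted, 2 were higher at E16.5 and 0 in adult ChP at a p under 0.05, beside 3006 and 620 of all 11601 genes tested. The median log2 change of the 11 was -0.47. Epha4 was the most abundant, at 15.7, 10.9 and 4.79 FPKM in adult ChP and 3.65, 5.36 and 6.21 FPKM at E16.5, with overlap between the ages (adjusted p = 0.406). Ephb4, a receptor known from veins, was at 7.10, 6.04 and 7.27 FPKM in adult ChP, above all E16.5 values of 1.87, 3.70 and 1.296 FPKM, with a log2 change of 1.31 (SE 0.62, adjusted p = 0.194).

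The genes whose profile over the 6 libraries lay nearest to Sema3c, by the root-mean-square difference of centred log2(FPKM + 1) among 11601 genes, were Zfp81 (0.140), Lrwd1 (0.154) and Usp11 (0.162). Zfp81 was at 0 in adult replicates 1 and 3, at 1.92 FPKM in adult replicate 2 and at 12.5, 9.92 and 12.2 FPKM at E16.5, and like Sema3c these 3 genes were listed at 0 in the same 2 adult libraries. Nearest to Slit3 were D1Ertd622e (0.172), Tgfb3 (0.243), a transforming growth factor, and Mdp1 (0.316). In each of these adult replicate 3 was the highest adult library, with Tgfb3 at 0, 0.708 and 3.38 FPKM in adult ChP and 16.1, 14.9 and 12.7 FPKM at E16.5. Nearest to Ntn1 were Lonrf2 (0.0686), Arl15 (0.0838) and Kcnip2 (0.113). Such likeness over 6 libraries of 2 ages is a description, since the profiles share the libraries, their depth and their zeros.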
